A study of Mus musculus with 8 samples.

Results

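Promoters of chaperone and protein folding genes are described here in kidney tubuloids given myoglobin. The peak table held 6425 regions of open chromatin, and 40 of them, at 37 genes, lay within 1000 bp of the transcription start site of a chaperone or folding-factor gene. The members were taken by gene symbol, as heat shock proteins (Hsp), J proteins (Dnaj), the chaperonin TRiC (Cct2 to Cct8 and Tcp1), Bag co-chaperones, Stip1, prolyl isomerases (Fkbp and Ppi), protein disulfide isomerases (Pdia), Sdf2l1 and prefoldins (Pfdn). The rule uses no measured value. Of the 40 peaks, 20 (17 genes) belonged to chaperones of the cytosol, 11 to the endoplasmic reticulum (ER), 3 to mitochondria and 2 to nuclear folding factors. The other 4 were the endosomal J protein gene Dnajc13, Fkbp15, and a pair taken in by their letters, Tcp11l2, which is no TRiC subunit, and Hspb11, which encodes an intraflagellar transport protein. All 40 were above 0 in all 8 libraries, and no filter on low values was applied to the table.

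The libraries came from mouse kidney tubuloids, epithelial structures grown in Matrigel from dissociated cells of the kidney cortex of wild-type mice. Both groups had the same genotype and culture, and 4 libraries had vehicle while 4 had myoglobin, the haem protein of muscle, for 12 h. Open chromatin was assayed by ATAC-seq, in which the transposase Tn5 cuts accessible DNA. The series names 4 mice, but the labels tie no library to a mouse and state no age, sex or dose.

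Chaperones bind unfolded proteins and keep them from aggregating while they fold. HSP70 proteins work in cycles of ATP hydrolysis with J proteins, which bring the substrate, and with nucleotide exchange factors such as Bag proteins and Hsph1. HSP90 takes over many clients with the help of Stip1, while the ring-shaped chaperonins TRiC (cytosol) and HSP60-HSP10 (mitochondria) enclose them. Each compartment has its own control: heat shock factor 1 binds heat shock elements in the promoters of cytosolic and some mitochondrial chaperone genes, and ATF6 and XBP1 bind ER stress elements in the promoters of ER chaperone genes. In kidney tubule cells, heat shock proteins and the ER stress response are known to be induced by ischaemic and toxic injury.

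The deposited values, called values here, were whole numbers with the spacing of reads scaled between libraries and rounded, with totals of 124415 to 126782 per library. The reads behind them, estimated from the spacing of the numbers, were 130568 to 200519 in vehicle and 67645 to 123453 in myoglobin libraries, with myoglobin replicates 2 and 3 the shallowest. Peaks were assigned to 5 of 19 tubule epithelium markers (Cdh1, Cdh16, Epcam, Pax2 and Scnn1g), with summed values of 102 to 125 in vehicle and 101 to 124 in myoglobin libraries, while none was assigned to the 5 podocyte, 6 immune, 6 endothelial or 7 fibroblast and pericyte markers. In bulk libraries, fewer cells with an open promoter and less access per cell cannot be told apart.

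Of the 37 genes, 31 had a promoter of 300 bases in the RefSeq table for GRCm38.p6, the assembly of mm10 (250 bases before the start and 50 from it). Searched on both strands, a heat shock element core, GAANNTTC or TTCNNGAA, was found in 5 of the 31 (16.1%), against 9.23% of 2991 promoters with a peak in the table and 15.1% of all 32851 promoters. A run of 3 alternating units was found at Hsph1 and Hspe1, against 0.301% and 0.603%. The ER stress element, CCAAT and CCACG separated by 9 bases, was found in 3 (9.68%), against 0.368% and 0.119%, and all 3 were among the 10 ER promoters searched. Cores overlap within the longer runs, and CCAAT alone was present in 51.6% of the members and in 49.7% of promoters with a peak. TGATGNAA, a motif of ATF4 and CHOP, was found in 0 of 31 (1.34% of promoters with a peak). Only exact matches were counted, so that near matches, such as CCAAT and CCAAC separated by 9 bases in Hspa5, are left out. Such matches describe the letters and not bound sites.

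The chaperone promoters that carry these elements are printed in full where they hold a run or an ER stress element, and as 60 bases where they hold a lone core (Dnaja1, Bag3). They read 5′ to 3′ on the strand of the gene, with the elements in capitals. Positions on mm10 are chr5:149636287-149636586 (minus strand, Hsph1), chr1:55087898-55088197 (plus, Hspe1), chr2:34771840-34772139 (plus, Hspa5), chr10:86705395-86705694 (minus, Hsp90b1), chr14:118937682-118937981 (plus, Dnajc3), chr4:40722318-40722377 (plus, Dnaja1) and chr7:128523573-128523632 (plus, Bag3).
Hsph1: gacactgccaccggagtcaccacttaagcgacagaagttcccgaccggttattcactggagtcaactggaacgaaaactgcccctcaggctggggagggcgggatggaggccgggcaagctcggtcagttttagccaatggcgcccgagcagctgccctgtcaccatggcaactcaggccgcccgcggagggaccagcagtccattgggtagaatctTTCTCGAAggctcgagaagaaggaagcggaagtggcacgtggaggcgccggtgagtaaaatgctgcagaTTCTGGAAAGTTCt
Hspe1: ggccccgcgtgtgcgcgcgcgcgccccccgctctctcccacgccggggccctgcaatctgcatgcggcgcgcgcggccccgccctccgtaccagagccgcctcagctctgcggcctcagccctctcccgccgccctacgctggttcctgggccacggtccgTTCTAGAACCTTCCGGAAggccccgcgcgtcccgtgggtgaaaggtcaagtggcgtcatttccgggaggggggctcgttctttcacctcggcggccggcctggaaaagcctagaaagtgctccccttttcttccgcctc
Hspa5: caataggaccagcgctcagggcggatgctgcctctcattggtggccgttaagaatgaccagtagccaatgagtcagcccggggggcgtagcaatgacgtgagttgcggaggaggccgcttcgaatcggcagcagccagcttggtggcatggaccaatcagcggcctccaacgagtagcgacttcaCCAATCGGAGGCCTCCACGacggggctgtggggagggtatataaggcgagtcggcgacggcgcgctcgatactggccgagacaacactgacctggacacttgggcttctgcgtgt
Hsp90b1: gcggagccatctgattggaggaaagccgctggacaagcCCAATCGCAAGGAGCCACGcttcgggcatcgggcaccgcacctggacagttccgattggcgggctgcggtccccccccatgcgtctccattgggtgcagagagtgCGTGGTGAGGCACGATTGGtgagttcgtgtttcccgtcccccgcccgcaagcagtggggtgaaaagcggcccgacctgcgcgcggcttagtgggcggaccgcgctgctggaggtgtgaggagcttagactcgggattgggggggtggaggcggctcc
Dnajc3: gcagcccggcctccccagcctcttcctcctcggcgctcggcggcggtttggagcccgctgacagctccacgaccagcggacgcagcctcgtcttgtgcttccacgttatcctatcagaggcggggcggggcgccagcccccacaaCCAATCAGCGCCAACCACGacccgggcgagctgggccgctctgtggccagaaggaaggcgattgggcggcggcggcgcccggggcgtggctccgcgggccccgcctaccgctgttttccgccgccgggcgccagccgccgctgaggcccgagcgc
Dnaja1: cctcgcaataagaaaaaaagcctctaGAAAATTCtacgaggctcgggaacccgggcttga
Bag3: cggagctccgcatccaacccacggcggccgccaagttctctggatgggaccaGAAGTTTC

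Positions of elements are counted from the RefSeq start. At Hspe1 the run held overlapping cores from 89 to 72 bases before it. Hspe1, which encodes the HSP10 lid of the mitochondrial chaperonin, is transcribed away from Hspd1, the gene of HSP60, and the starts lie 216 bp apart. One peak of 507 bp covered both starts and the run between them, so its value belongs to the pair. In Hsph1 a core lay 33 to 26 bases before the start and a run 36 to 48 bases after it, all inside the peak at the start. Hsp90b1 held its pair of ER stress elements 212 to 194 and 107 to 89 bases before the start, Hspa5 held 1 at 65 to 47, and Dnajc3 held 1 at 105 to 87, all within their peaks. The Dnaja1 core lay across the upstream edge of the second of the 2 peaks of that gene and inside neither, and the Bag3 core lay outside its peak. Tcp11l2, the fifth promoter with a core and no chaperone gene, held 2 outside its peak and is not printed.

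**Figure D1:**
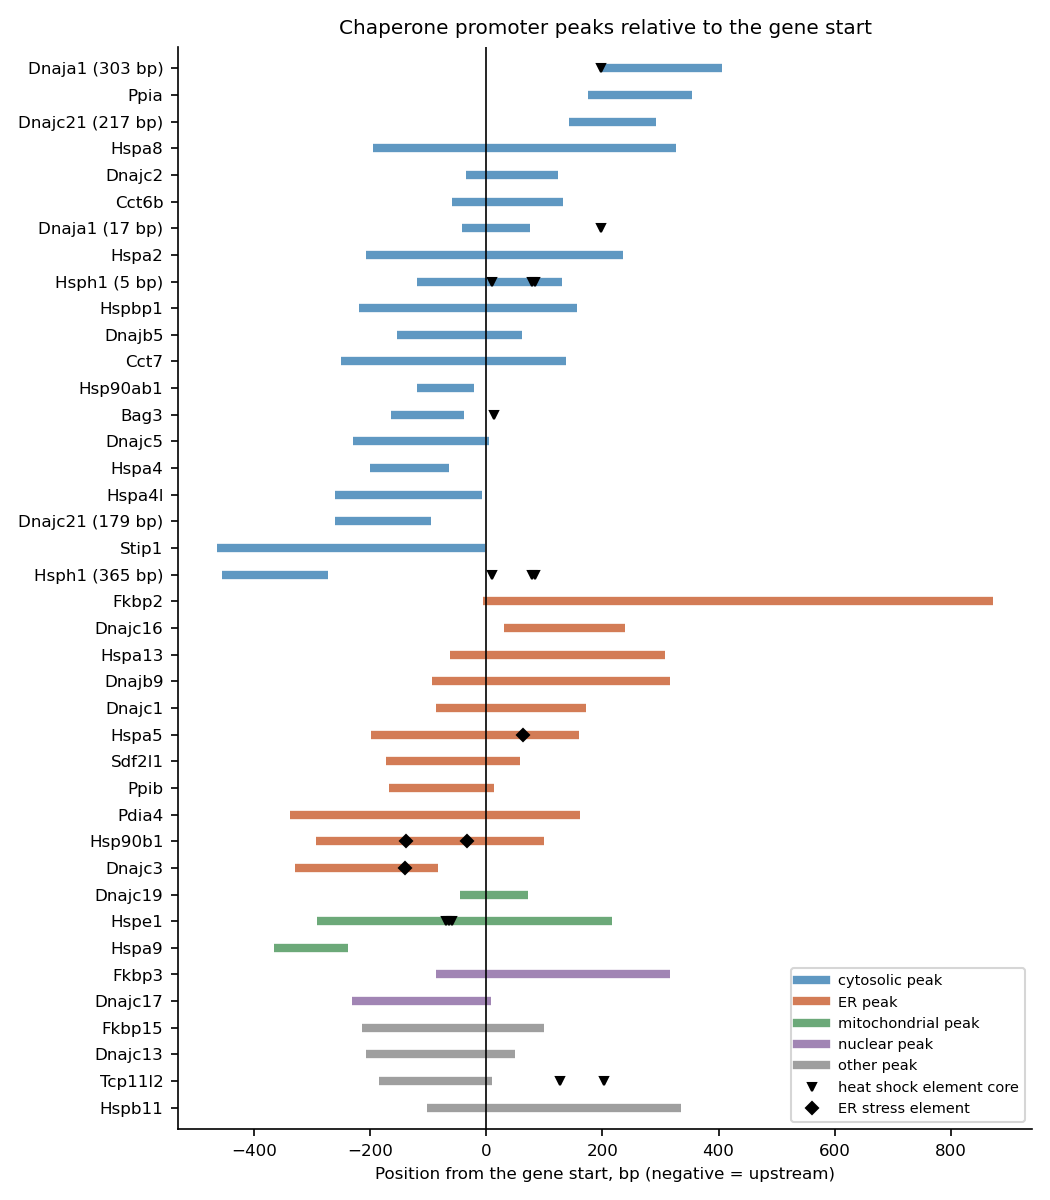
Peaks of the 40 members (bars) by position from the gene start given in the table, in bp, coloured by compartment, with heat shock element cores (triangles) and ER stress elements (diamonds) where the RefSeq promoter held them. Peak centres lie within 434 bp of the start, and the elements of Hsph1 (start peak), Hspe1, Hspa5, Hsp90b1 and Dnajc3 fall inside the bars.

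All 40 peak centres were within 434 bp of the start in the table, 23 upstream and 17 downstream, so that a window of 500 bp held the same members. The start of the table and the nearest RefSeq start differed at some genes, Hspa5, Hsph1 and Dnaja1 among them. Elements therefore stand elsewhere in the map of peaks, which counts from the start of the table. What is called the start peak of Dnaja1 lay over the start of the table. The RefSeq start of Dnaja1 lay under the second peak of that gene. Head-to-head gene pairs with starts within 1000 bp made up 6 of the 31 promoters (19.4%; 20.3% of promoters with a peak). They were Hspe1 with Hspd1, Cct7 with Pradc1, Cct6b with Zfp830, Fkbp15 with Slc31a1, Hspb11 with Lrrc42 and Dnaja1 with Gm6297, and at all but the last the peak also covered the start of the partner. The median GC content was 65.0% for the members and 64.0% for promoters with a peak.

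In vehicle libraries the chaperone promoters covered most of the range of promoter openness. Read per 100 bp of peak, because wide peaks collect more reads, the vehicle value had a median of 7.95 over the 40 members and 7.91 over the 4162 promoter peaks. The ER members had a median of 9.51 (7.16 to 14.3), the cytosolic members 6.93 (3.46 to 12.5) and the mitochondrial members 7.28 (3.02 to 7.79). ER peaks were also wider, with a median of 358 bp against 198.5 bp in cytosolic members and 222 bp over all promoter peaks. These medians carry no test, as genes are not replicates.

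The densest member was Pdia4, which encodes an ER disulfide isomerase, at 14.3 ± 1.64 per 100 bp (SD over 4 vehicle libraries), above 98.1% of promoter peaks. Hsp90b1, the gene of the ER HSP90 known as GRP94, stood at 13.9 ± 1.13, above 97.5%. Among cytosolic genes the densest were Stip1, the HSP70-HSP90 adaptor, at 12.5 ± 2.31, Bag3, at 12.3 ± 2.29, and the upstream peak of Hsph1, at 11.2 ± 1.87 per 100 bp. These neighbours did not differ by more than their SD within each compartment. At the other end were Dnajc19, a J protein of the mitochondrial import motor, at 3.02 ± 1.49, Hspa4l at 3.46 ± 1.14 and the start peak of Dnaja1 at 3.60 ± 1.75 per 100 bp. Between these lay Hsp90ab1, the constitutive cytosolic HSP90 gene, at 6.63 ± 1.32, and Hspa8, the constitutive HSP70 gene, at 9.85 ± 1.13 per 100 bp.

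**Figure D2:**
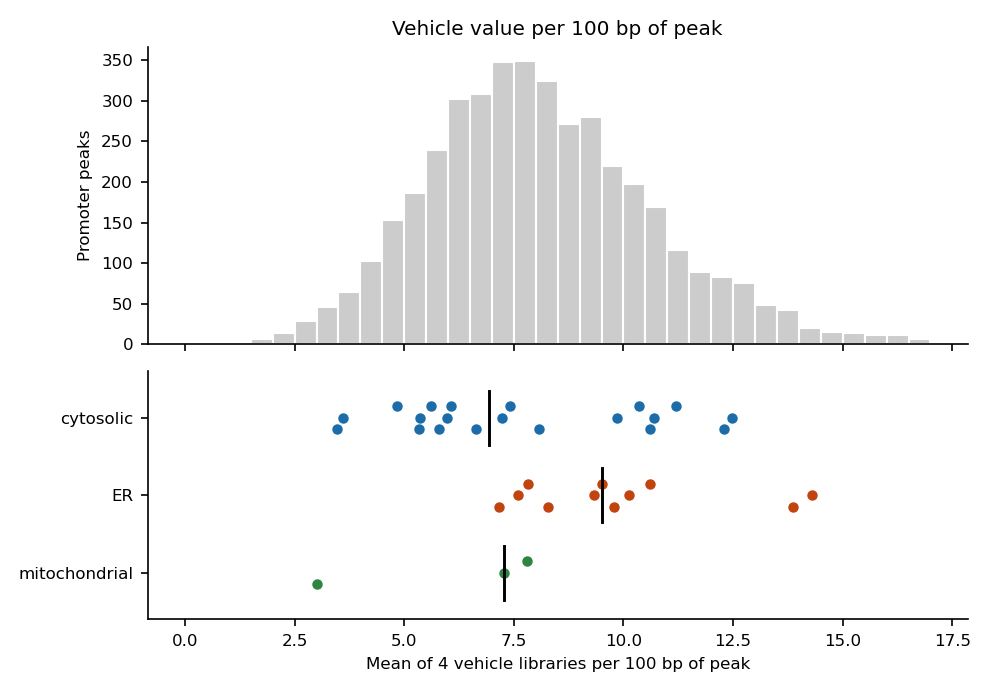
Mean value of the 4 vehicle libraries per 100 bp of peak, as a histogram of promoter peaks (top, without 16 peaks at 17 or more) and for each cytosolic, ER and mitochondrial member (bottom, black lines are medians). ER members start at 7.16, while cytosolic members spread from 3.46 to 12.5.

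The contrast of the series asked which promoters opened or closed with myoglobin. At chaperone promoters, 0 of 40 peaks passed limma at an adjusted p under 0.05, against 16 of all 6425 peaks (0.249%). At an unadjusted p under 0.05 the count was again 0, against 7.60% of all peaks, and the 4 myoglobin libraries stood wholly above or below the 4 vehicle libraries at 0 of 40, against 3.04%. The lowest adjusted p was 0.649. Differences, as log2(value + 1) in myoglobin minus vehicle, had a median of -0.06 over the members, from -0.53 to 0.44, with 25 below 0 and 15 above. Over all promoter peaks the median was -0.01, with 51.4% below 0. A difference beyond 0.5 in either direction was seen at 1 of 40 members (2.50%) and at 9.75% of promoter peaks.

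The intervals say how large a change could have been missed. The 95% interval of the difference lay within a 2-fold change in both directions at 35 of the 40 members, and within 1.5-fold at 15, beside 3334 and 1301 of the 4162 promoter peaks. The 5 whose interval passed a 2-fold line were Hsp90ab1, the start peak of Dnaja1, the upstream peak of Dnajc21, Dnajc19 and Tcp11l2. The estimated reads behind a member ranged widely, from 20 in vehicle and 13 in myoglobin at Dnajc19 to 451 and 271 at Fkbp2. At Tcp11l2, with 107 and 47, the interval passed the 2-fold line at its lower end, since it was centred on -0.53.

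**Figure D3:**
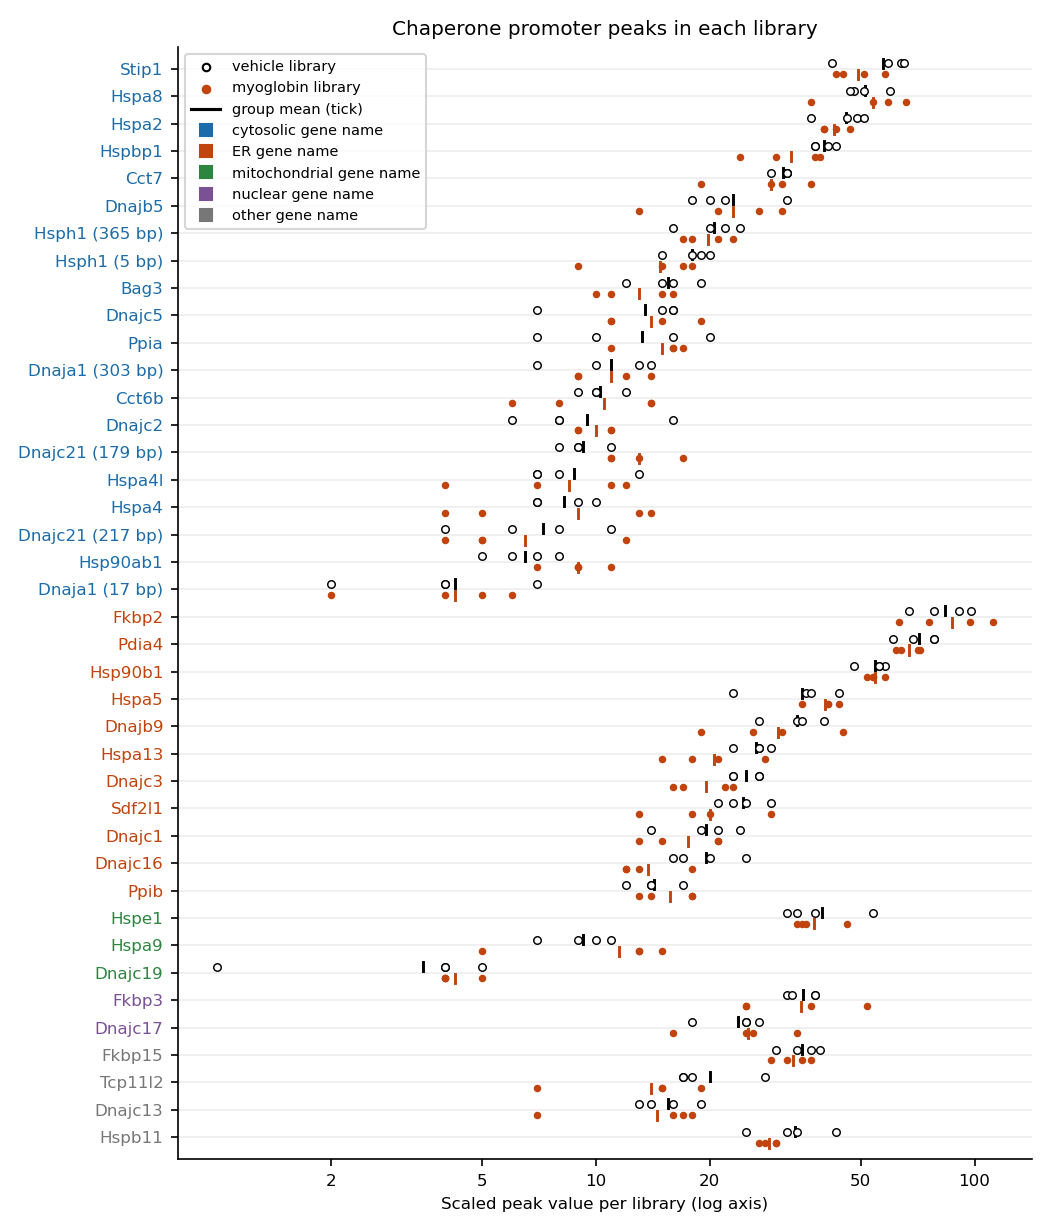
Scaled value of each of the 40 member peaks (rows, gene names coloured by compartment) in every library on a log axis, vehicle as open and myoglobin as filled points, ticks marking group means. The groups overlap or touch in every row, from Dnajc19 at 1 to 5 to Fkbp2 at 63 to 112.

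**Figure D4:**
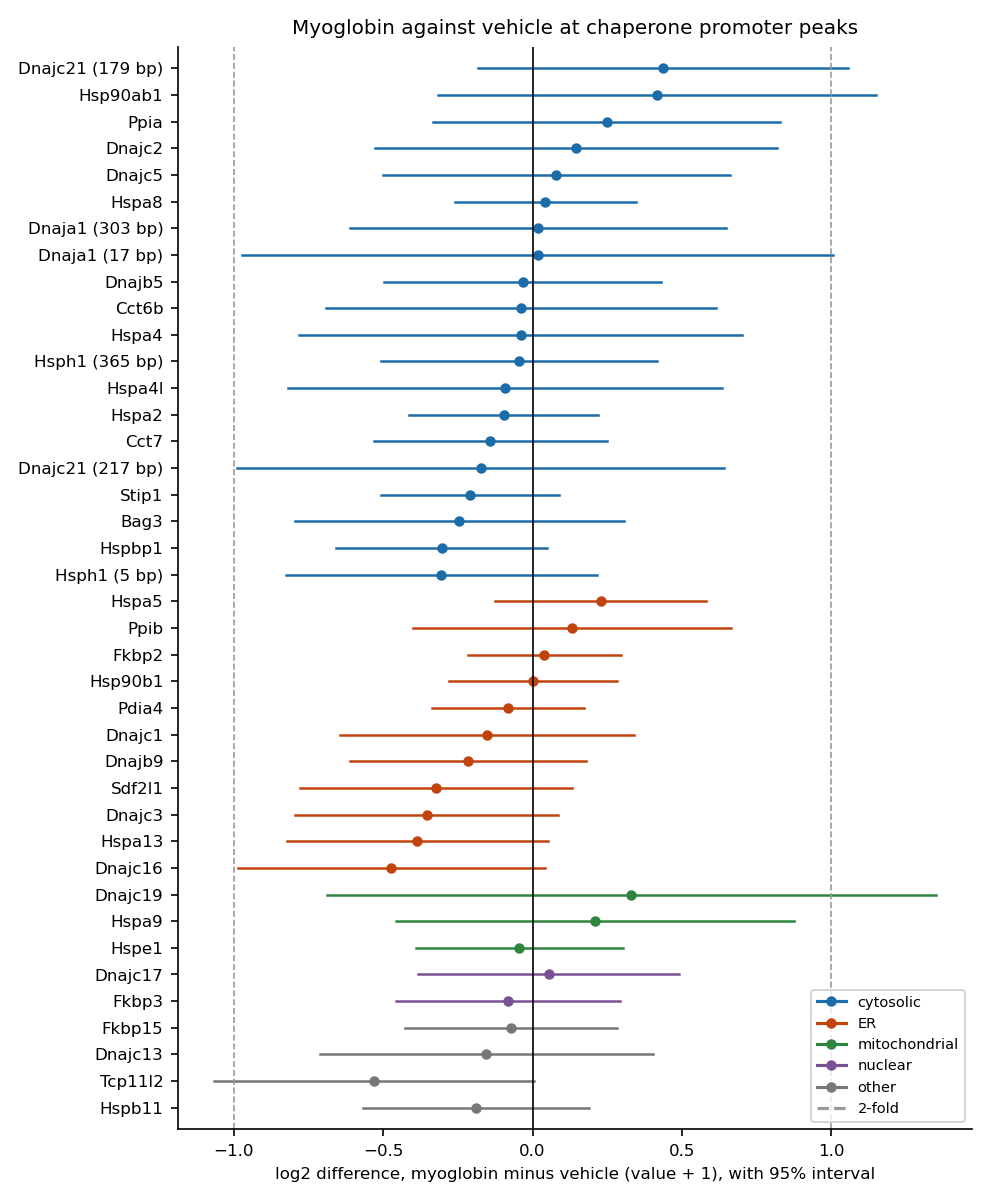
Difference between myoglobin and vehicle in log2(value + 1) with its 95% interval from limma for the 40 member peaks, by compartment, dashed lines marking 2-fold. Every interval includes 0, and 35 lie between the dashed lines.

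Among cytosolic HSP70 genes, Hspa8, whose product does most of the basal HSP70 work, had values of 48, 60, 47 and 51 in vehicle replicates 1 to 4 and of 59, 66, 37 and 54 in myoglobin replicates 1 to 4. Its peak at chr9:40800788-40801311 was thus both highest and lowest in myoglobin libraries, with a log2 difference of 0.04 ± 0.15 (SE; interval -0.26 to 0.35, adjusted p = 0.979 by limma). Hsph1 encodes HSP110, an exchange factor for HSP70, and had 2 peaks. The one over its start, which holds the heat shock elements printed above (chr5:149636246-149636495), was at 18, 19, 20 and 15 in vehicle and 18, 9, 15 and 17 in myoglobin. Myoglobin replicate 2 was the lowest, and the groups overlapped (log2 difference -0.31 ± 0.26, adjusted p = 0.848). The upstream peak was at 16, 20, 22 and 24 against 23, 18, 21 and 17, with a log2 difference of -0.05 ± 0.23. The remaining HSP70 peaks, at Hspa2, Hspa4 and Hspa4l, had log2 differences of -0.10, -0.04 and -0.09.

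Hsp90ab1 had a narrow peak of low value at chr17:45573292-45573390, at 5, 7, 6 and 8 in vehicle and 9, 9, 7 and 11 in myoglobin. Of the myoglobin libraries, 3 stood above all vehicle libraries, for a log2 difference of 0.42 ± 0.37 whose interval ran from -0.32 to 1.15 (adjusted p = 0.857). Of 8 cytosolic cofactor genes that match the symbols, 3 had a peak, Stip1, Hspbp1 and Bag3, with log2 differences between -0.30 and -0.21. Stip1 (chr19:7039970-7040431) was at 42, 64, 65 and 59 in vehicle and 51, 43, 58 and 45 in myoglobin, so that vehicle replicate 1 was the lowest of the 8 (log2 difference -0.21 ± 0.15, adjusted p = 0.791). At Hspbp1, an HSP70 exchange factor gene (chr7:4684911-4685288), vehicle libraries agreed closely at 43, 41, 38 and 38. Myoglobin libraries ran at 24, 38, 30 and 39, with replicates 1 and 3 below all vehicle libraries (log2 difference -0.30 ± 0.18, interval -0.66 to 0.05, adjusted p = 0.710). Bag3, whose product steers HSP70 clients to autophagy and whose gene is a known target of heat shock factor 1, was at 19, 12, 16 and 15 against 16, 15, 11 and 10 (chr7:128523452-128523578; log2 difference -0.24 ± 0.28, adjusted p = 0.906).

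Cytosolic J proteins had 7 peaks at 5 genes, with log2 differences from -0.17 to 0.44 and a median of 0.02. The Dnaja1 peaks had the same mean in both groups. At the start of the table (chr4:40722108-40722226) the values were 7, 2, 4 and 4 against 2, 5, 4 and 6. In the second peak (chr4:40722350-40722556), over the RefSeq start, they were 10, 14, 13 and 7 against 12, 9, 9 and 14. Each peak had a log2 difference of 0.02, with SE 0.50 and 0.32. Dnajc21, whose product acts in ribosome assembly, had the highest difference of all members at its upstream peak (chr15:10470612-10470777), from 8, 9, 9 and 11 in vehicle to 17, 11, 13 and 11 in myoglobin. No myoglobin library was below a vehicle library there, and the groups met at 11 (log2 difference 0.44 ± 0.31, interval -0.18 to 1.06, adjusted p = 0.784). The other Dnajc21 peak, 217 bp downstream, stood on the other side of 0, at -0.17 ± 0.41. The TRiC genes Cct7 and Cct6b were at -0.14 and -0.04, and Ppia, the cyclophilin A gene, at 0.25 ± 0.29.

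Among cytosolic, ER and mitochondrial members, those of the ER had the highest median density in vehicle. Of the 11 ER differences, 7 were below 0, with a median of -0.15. Hspa5 encodes BiP, the ER HSP70 and the standard marker of ER stress. Its peak over the ER stress element printed above (chr2:34771771-34772129) was at 23, 36, 44 and 37 in vehicle and 44, 41, 35 and 41 in myoglobin. Apart from vehicle replicate 1 the groups ran together, and the log2 difference was 0.23 ± 0.18 (interval -0.13 to 0.58, adjusted p = 0.822). Hsp90b1, with a pair of such elements, was the steadiest member, at 58, 56, 56 and 48 against 52, 54, 58 and 54 (chr10:86705410-86705803). Both means were 54.5, and the interval of the log2 difference ran from -0.28 to 0.28 (adjusted p = 0.999). Pdia4 was at 61, 78, 78 and 69 against 64, 72, 62 and 71 (chr6:47813268-47813768; log2 difference -0.08 ± 0.13, adjusted p = 0.936).

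BiP works with ER J proteins, whose 4 measured genes all had differences below 0, none of them past the test. Dnajc3 encodes P58IPK, a J protein that also restrains the kinase PERK. Its peak (chr14:118937646-118937893) was at 27, 23, 23 and 27 in vehicle and 16, 17, 22 and 23 in myoglobin, and the groups met at 23 (log2 difference -0.35 ± 0.22, interval -0.79 to 0.09, adjusted p = 0.740). Dnajc16 was at 16, 20, 17 and 25 against 12, 12, 13 and 18, with 3 myoglobin libraries under all vehicle libraries and replicate 4 among them (chr4:141790692-141790901; log2 difference -0.47 ± 0.26, interval -0.99 to 0.04, adjusted p = 0.684). Dnajb9 encodes ERdj4, a target of XBP1 that promotes the degradation of misfolded proteins, and had the widest spread of the group. Its values were 40, 27, 34 and 35 in vehicle and 45, 26, 19 and 31 in myoglobin, whose replicates 1 and 3 were the highest and lowest of the 8 (chr12:44210009-44210420; log2 difference -0.22 ± 0.20, adjusted p = 0.864). Dnajc1, an ER membrane J protein gene, was at -0.15 ± 0.25.

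Sdf2l1 encodes a partner of BiP that is induced by ER stress. Its values were 21, 29, 25 and 23 in vehicle and 29, 20, 13 and 18 in myoglobin (chr16:17132325-17132556), so that 3 myoglobin libraries lay under the vehicle range and replicate 1 at its top (log2 difference -0.32 ± 0.23, adjusted p = 0.779). Hspa13, a gene of a small microsomal HSP70-like protein, was at 27, 23, 29 and 27 against 21, 15, 28 and 18 (chr16:75766797-75767167), with myoglobin replicate 3 within the vehicle range and the others below it (log2 difference -0.39 ± 0.22, interval -0.82 to 0.05, adjusted p = 0.698). The prolyl isomerase genes Ppib and Fkbp2 stood at 0.13 ± 0.27 and 0.04 ± 0.13. Fkbp2 had the widest member peak, 878 bp, and the highest values, from 67 to 98 in vehicle and from 63 to 112 in myoglobin.

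Only 3 mitochondrial members were measured. The shared Hspe1 and Hspd1 peak (chr1:55087841-55088348) was at 32, 38, 34 and 54 in vehicle and 36, 46, 35 and 34 in myoglobin. Vehicle replicate 4 was the highest, the groups overlapped, and the log2 difference was -0.04 ± 0.17 (interval -0.39 to 0.30, adjusted p = 0.980).

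Hspa9 encodes mortalin, the HSP70 of the mitochondrial matrix, and its peak (chr18:34954595-34954722) lay about 302 bp upstream of the start. It was at 9, 11, 10 and 7 in vehicle and 13, 15, 13 and 5 in myoglobin, where replicate 4 was the lowest of the 8 and the other 3 were the highest (log2 difference 0.21 ± 0.33, adjusted p = 0.937). Dnajc19 was at 5, 4, 1 and 4 against 4, 5, 4 and 4, and its difference of 0.33 ± 0.51 came with the single low value of vehicle replicate 3 (-0.02 without that library).

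At nuclear and other members the groups overlapped as well. Dnajc17, a spliceosome-associated J protein gene, was at 27, 25, 25 and 18 in vehicle and 16, 26, 34 and 25 in myoglobin (log2 difference 0.05 ± 0.22). Fkbp3, a nuclear prolyl isomerase gene, was at 32, 38, 33 and 38 against 25, 52, 37 and 25, with myoglobin libraries on both sides of the vehicle range (-0.08 ± 0.19). The endosomal Dnajc13 was at 19, 14, 16 and 13 against 17, 18, 7 and 16, and differed by -0.15 ± 0.28. Tcp11l2, no chaperone, had the lowest difference of all members and the smallest p. It was at 28, 17, 17 and 18 in vehicle and 15, 15, 7 and 19 in myoglobin, the extremes being vehicle replicate 1 and myoglobin replicate 3 (log2 difference -0.53 ± 0.27, interval -1.07 to 0.00, adjusted p = 0.649). Fkbp15 and Hspb11 were at -0.07 and -0.19.

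Set side by side, the compartments had median log2 differences of -0.04 (cytosolic, 12 of 20 below 0), -0.15 (ER, 7 of 11) and 0.21 (mitochondrial, 1 of 3), beside -0.01 over all promoter peaks. With 1 library left out the mitochondrial median ran from -0.022, without vehicle replicate 3, to 0.35. Averaged per library as log2(value + 1), ER members stood at 4.89, 5.07, 5.05 and 5.10 in vehicle replicates 1 to 4 and at 4.94, 4.81, 4.78 and 5.02 in myoglobin replicates 1 to 4. Vehicle replicate 1 lay among the myoglobin libraries, and myoglobin replicates 2 and 3 were the lowest. Cytosolic members stood at 3.92, 4.13, 3.97 and 4.09 against 4.09, 4.05, 3.83 and 4.08, with myoglobin replicate 3 the lowest and the others within the vehicle range. The group means were 5.03 ± 0.09 and 4.89 ± 0.11 for the ER and 4.03 ± 0.10 and 4.01 ± 0.12 for the cytosol (SD, n = 4). Mitochondrial members, at 3.57 ± 0.25 and 3.73 ± 0.29, had the largest SDs of the 3 compartments and average only 3 peaks. No test was made on these averages, and whether the compartments differ in their response was not tested.

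**Figure D5:**
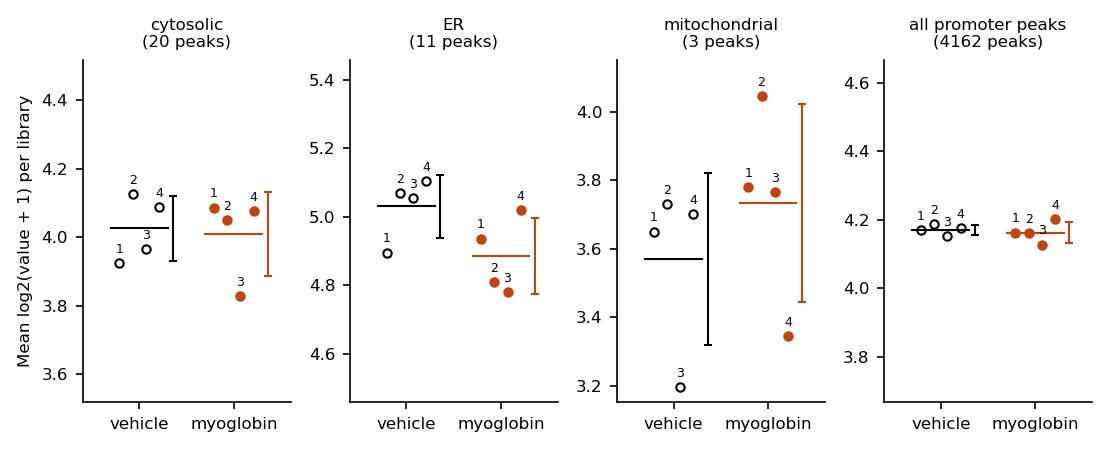
Mean log2(value + 1) per library for cytosolic, ER and mitochondrial members and for all promoter peaks, with replicate numbers beside the points, lines for group means and bars for SD (n = 4). All panels span 1 log2 unit, and myoglobin replicate 3 is lowest for the cytosolic and ER members and for all promoter peaks (4.13).

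Depth differed between the groups, and its part in these differences was not tested. Myoglobin replicate 3, the shallowest library, was the lowest or tied for lowest at 11 of 40 members (27.5%) and the highest or tied at 2 (5.00%), beside 22.5% and 19.0% of all promoter peaks. Myoglobin replicate 2, the next shallowest, was lowest or tied at 3 (7.50%; 17.1% of promoter peaks), and vehicle replicate 1, a deeper library, at 9 (22.5%; 13.6%). Without myoglobin replicate 3, the ER median was -0.03 and the cytosolic median 0.07. Without myoglobin replicates 2 and 3 together the medians were -0.04 for the ER, 0.03 for the cytosol and -0.14 for mitochondria. Between libraries of a group, the variance at member peaks averaged 1.16 times in vehicle and 1.00 times in myoglobin what the sampling of reads gives.

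Regulators of the same pathways were read from lists of genes beyond the members. Of 14 genes listed under heat shock factors and their regulators, 8 had a promoter peak (4 above 0, 4 below, median -0.04). Of these, 0 passed limma over all peaks and 0 had an unadjusted p under 0.05, where 0.249% and 7.60% of all peaks did. The listed peak of Sqstm1, the autophagy adaptor gene, lay 613 bp from the start. It was at 26, 22, 23 and 22 in vehicle and 23, 12, 21 and 15 in myoglobin (-0.41 ± 0.24, adjusted p = 0.704 by limma). Hsf2, a heat shock factor gene, was at 25, 17, 17 and 20 against 17, 24, 35 and 23 (0.28 ± 0.23). Both pairs of groups overlapped.

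The ER unfolded protein response list had peaks at 17 of 26 genes, of which 0 passed and 1 had an unadjusted p under 0.05, a share near the 7.60% of all peaks (11 above 0, 6 below, median 0.05). That one was Ppp1r15b, which encodes the constitutive regulatory subunit of the phosphatase of eIF2-alpha. Its values were 28, 32, 30 and 37 in vehicle and 40, 44, 37 and 47 in myoglobin, meeting at 37 (log2 difference 0.39 ± 0.17, interval 0.05 to 0.74, adjusted p = 0.589). Herpud1, a component of ER-associated degradation, was at 21, 18, 21 and 21 against 24, 26, 28 and 26, so that all myoglobin libraries were above all vehicle libraries (log2 difference 0.35 ± 0.21, interval -0.08 to 0.77, adjusted p = 0.730). Such separation was seen at 3.04% of all peaks.

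The mitochondrial list had peaks at 8 of 15 genes, and 0 passed, with 0 at an unadjusted p under 0.05, beside the same 0.249% and 7.60% of all peaks (4 above 0, 4 below, median 0.03). Clpp, the matrix protease gene, was at 4, 7, 5 and 7 in vehicle and 12, 8, 9 and 6 in myoglobin (0.52 ± 0.39, adjusted p = 0.802), and Afg3l2 at 13, 23, 17 and 15 against 20, 14, 28 and 20 (0.25 ± 0.25). Other folding factors had 7 peaks at 6 of 22 genes, and again 0 passed, with 0 at an unadjusted p under 0.05 (3 above 0, 4 below, median -0.01). In that list Stub1, the gene of the ubiquitin ligase CHIP, had 2 peaks, and the one 317 bp from its start was at 25, 24, 26 and 34 against 41, 43, 24 and 29 (0.29 ± 0.20, adjusted p = 0.758). Its other peak, of low value at the start, had a log2 difference of -0.18 ± 0.56. Txndc5 was at 9, 4, 4 and 4 against 6, 3, 4 and 4 (-0.21 ± 0.47).

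Several genes well known for heat induction had no peak assigned in the table used here. Of 137 protein-coding genes in RefSeq that match the symbols, 37 (27.0%) had a promoter peak, beside 17.0% of 21900 protein-coding genes. By class these were 17 of 64 cytosolic genes (26.6%), 11 of 28 ER genes (39.3%) and 3 of 10 mitochondrial genes. Within the cytosol, 5 of 11 HSP70 genes had one, and 0 of 6 small heat shock protein genes and 0 of 5 prefoldin genes. Hspa1a, Hspa1b, Dnajb1, Hspb1 and Hsp90aa1, all known targets of heat shock factor 1, had none, whereas the targets Bag3 and Hsph1 had one or more, nor did Pdia3, Pdia6, Dnaja3, Ppif or the glucocorticoid-responsive Fkbp5, and Hspd1 had none of its own. The start of Hspd1 lay under the peak assigned to Hspe1. Whether the other promoters were closed, fell below the calling of peaks or had a peak assigned to a neighbouring gene was not tested.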

How the data were processed

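Per the submitters' processing notes, the build was mm10 and the tools were DESeq2 1.36.0, featureCounts, Picard 3.0.0, STAR 2.7.10a and Trimmomatic 0.39. What each did, the peak caller, and any removal of duplicates or Tn5 shift are not given in the sources used here. The authors deposited one score per peak and library on a single peak set. No source used here states its unit; the values are whole numbers with the spacing of reads multiplied by a factor per library and rounded. The factor was estimated by maximum likelihood from skipped and doubled whole numbers, and dividing by it gave estimated reads.

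The 4 myoglobin and 4 vehicle libraries were compared with limma 3.58.1 (R 4.3.3) on log2(value + 1), with treatment as the only term and a variance trend. All 6425 peaks were kept and p-values adjusted over them by Benjamini and Hochberg, with calls at 0.05. The prior variance carried 78.5 degrees of freedom. Count tests were not used, since the values are not counts. The SEs, intervals and p-values of a peak therefore rest mostly on the variance trend over all peaks, and less on its own values. They measure the spread between these libraries, which may be technical. The limma fit and the factor estimate were first run on simulated data with known answers.

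The members and lists were chosen with earlier results of these data known. Compartments were assigned by symbol from general knowledge; the role of Sdf2l1 within the ER was corrected after its values were seen. Named with all values were, in the cytosolic, ER and mitochondrial classes, the 3 smallest p and the 3 densest peaks, the 2 smallest p of other classes and of each list, and 25 well-known genes, of which 11 had no peak. Promoter sequences are from RefSeq (GRCm38.p6) and were taken at the start nearest to the peak; Hspa8, Hsp90ab1, Hspa13, Hspa9, Dnajc2 and Dnajc5 were not matched. Alternatives were median-ratio and total scaling, pseudocounts of 0.1 and 5, a filter at a mean of 10, leaving out single libraries, a block for the replicate number, the libraries without the 2 shallowest, start-site windows of 500 bp and of any distance, and 1 peak per gene.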

Additional observations from a re-analysis of the deposited data

Results flagged for a closer look

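Each member was searched in each group for a library standing apart from its group, by Dixon's ratio of gap to range. Of 80 sets, 9 held one. For continuous values chance gives about 1 in 20, or 4 sets; these are small whole numbers, in which ties make such gaps more frequent. Myoglobin replicate 2, one of the shallowest libraries, was the distant one in 4: at Hspe1 (46, the others 34 to 36), Dnajc19 (5, the others at 4), the downstream peak of Dnajc21 (12, the others 4 to 5) and Ppia (11, the others 16 to 17). Myoglobin replicate 4 was distant at Dnajc16 (18, the others 12 to 13). Among vehicle libraries, replicate 1 was distant at Tcp11l2 (28, the others 17 to 18), replicate 3 at Dnajc5 (7, the others 15 to 16), and replicate 4 at Hspa4l (13, the others 7 to 8) and Cct7 (29, the others at 32).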

How the results depend on the processing

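No member was called under any of the 18 alternatives, with 0 to 3 at an unadjusted p under 0.05; where it was 3, 9.25% (without myoglobin replicate 1) and 7.97% (without 4) of all peaks passed. Non-overlapping members numbered 0 to 4 with 1 library left out, against 4.92% to 6.37% of all peaks (5.96% where there were 4, without myoglobin replicate 4), and 4 without the 2 shallowest libraries, where 13.4% of all peaks had them. The ER median ran from -0.24 to -0.027 with 1 library left out and was -0.036 without the 2 shallowest, where the mitochondrial median was -0.14 (-0.022 to 0.35 with 1 library left out). With the replicate number as a replicate block, 0 members were called and the median stayed at -0.06. Same-numbered libraries correlated at -0.01 to 0.03 in their deviations, and vehicle replicates 1 and 4 but not 2 and 3 correlated best with their own number. These correlations cannot decide whether same-numbered libraries share a mouse, since the variance within groups was close to that of read sampling. Of 33 named peaks, 20 kept their sign in all alternatives. Without the 2 shallowest libraries the sign turned at Dnajb9 (0.15), Hspa9 (-0.15), Dnajc17 (-0.22), Dnajc13 (0.10), Hsp90b1 (-0.036) and the Dnaja1 start peak (-0.11), and with equal totals at Hsp90b1 (-0.00030). With 1 library left out it turned within these ranges: Hspa8 -0.062 to 0.21, upstream Hsph1 -0.15 to 0.031, Dnaja1 -0.22 to 0.26 (start) and -0.16 to 0.14, Hsp90b1 -0.056 to 0.033, Dnajc19 -0.022 to 0.51, Hspe1 -0.14 to 0.11, Dnajc17 -0.10 to 0.25, Fkbp3 -0.29 to 0.050, Dnajc13 -0.28 to 0.14 and Txndc5 -0.36 to 0.041. The causes were not tested.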
